A study of Mus musculus with 24 samples.

Results

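The 8 genes described here are Bdnf, which encodes brain-derived neurotrophic factor, the receptor genes Ntrk2, Ntrk3 and Sort1, the activity-regulated genes Vgf and Nptx2, and the genes of the transcription factor CREB (Creb1) and of its coactivator CRTC1 (Crtc1). They were found by their symbols among the 15456 genes of the deposited table, each symbol matched 1 row, and all 8 were among the 14974 genes tested. Gene expression was measured by poly(A) RNA sequencing of the medial prefrontal cortex of 24 male BALB/c OlaHsd mice in postnatal week 11. The 4 groups of 6 mice each were untreated controls (given PBS according to the methods), mice injected daily with duloxetine (dul), mice given live R. flavefaciens (Rf) by gavage, daily at first and then 2 times a week, and mice given both (Rf + dul). Duloxetine, an antidepressant, inhibits the transporters that clear serotonin and noradrenaline from the synapse, and R. flavefaciens is a gut bacterium. All mice were of 1 strain and no group carried a gene modification. The recovered read totals per mouse ranged from 12811413 to 15607343, with a median of 14455107. The methods say that mice were group housed, and the labels do not give the cages. Each first number of the mouse labels (9 in 9_3) occurs in 1 group only, so if it marks a cage, cage and treatment cannot be told apart. The p-values measure the spread between these mice.

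BDNF is released at synapses and acts mainly through TrkB, the product of Ntrk2, whose kinase signals through the Ras-ERK, PI3K-Akt and phospholipase C gamma branches. These branches lead to phosphorylation of CREB, which then recruits coactivators of the CBP/p300 family. With these and with coactivators of the CRTC family, CREB drives genes that neuronal activity switches on. Bdnf, Vgf and Nptx2 are among these targets, so the ligand is also an output of the pathway. In the prefrontal cortex this loop is studied for its part in plasticity and in the response to antidepressants.

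CREB binds the palindrome TGACGTCA or the shorter TGACG, called the half-site. Both were searched on both strands in the RefSeq windows reaching from 250 bases before to 50 bases after a transcription start (GRCm38.p6), and each full site also holds 2 half-sites. Of all 32851 windows, 1.79% held the full site and 20.8% the half-site. Windows were present for 4 of the 8 genes (Bdnf with 7, and Ntrk2, Creb1 and Crtc1 with 1 each). None of these 10 windows held the full site, and 1 of them, at the Bdnf start chr2:109692436, held the half-site, on the minus strand and 35 to 31 bases before the start. Of the 37 windows found for 24 of the 33 listed CREB target genes, those of Bdnf included, 5 (13.5%) held the full site and 22 (59.5%) the half-site. The Bdnf site is set beside those of Sst, Pcsk1 and Scg2, 3 target genes whose windows held the full site and whose counts are described with their lists. Capitals mark the half-site in Bdnf and the full site in the others, and every stretch ends before the transcript begins.
Bdnf, chr2:109692371-109692435, plus strand: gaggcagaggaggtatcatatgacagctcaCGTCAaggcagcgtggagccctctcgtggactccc
Sst, chr16:23890855-23890922, minus strand: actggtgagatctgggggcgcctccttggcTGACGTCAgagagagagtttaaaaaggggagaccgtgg
Pcsk1, chr13:75089749-75089816, plus strand: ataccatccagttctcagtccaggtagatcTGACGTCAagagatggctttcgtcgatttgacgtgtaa
Scg2, chr1:79440057-79440124, minus strand: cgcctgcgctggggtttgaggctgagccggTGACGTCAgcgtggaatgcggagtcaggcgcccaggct
A match of letters is a description of the window and not a measured binding site. The counts are per gene, so they do not tell which of the Bdnf starts was used.

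Levels can be compared between genes only per length. Divided by the longest annotated transcript, Vgf had the highest level, 2023 ± 308 normalized counts per kb (SD, n = 24 mice), followed by Ntrk2 with 1448 ± 101 and Sort1 with 1322 ± 107. The next levels were those of Nptx2 (454 ± 89.9 normalized counts per kb), Crtc1 (323 ± 16.9), Ntrk3 (192 ± 23.8), Bdnf (171 ± 30.8) and Creb1 (114 ± 7.66). Neighbours in this order overlapped in their ranges over the 24 mice, except that the lowest Sort1 value, 1053 per kb, lay above the highest Nptx2 value, 631, and the lowest Crtc1 value, 289, above the highest Ntrk3 value, 226. The longest transcripts range from 2536 bases for Nptx2 to 19703 for Ntrk3, and shorter isoforms in use would raise a gene's true level per length. Ntrk2 and Ntrk3 are known to have isoforms without the kinase, which a count per gene adds to the full-length receptor.

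None of the 8 genes passed an adjusted p of 0.05 in limma in any of the 5 comparisons of groups or in the interaction of both treatments. Over all genes tested the shares past this threshold were 0% for duloxetine against control, 0.0267% for R. flavefaciens against control, 0.1% for both treatments against control, 0% for both against duloxetine, 2.23% for both against R. flavefaciens and 0% for the interaction. The shares differed under the alternatives. With R. flavefaciens against control DESeq2 called 3.32% of all genes, limma with a random block for the first number of the mouse label 1.48%, and limma with the oligodendrocyte marker level as a covariate 1.49%. The correlation within the block was estimated as -0.045, so mice that share the number were no more alike than others, and the calls gained with the block rest on this negative value. With both treatments against control DESeq2 called 1.45% and the fit to only these groups 1.31%. With both against R. flavefaciens DESeq2 called 4.07%, the block 3.56%, the covariate 4.92%, the fit without the transcript length trend 2.77% and quantile normalization 2.11%. The fit to only the groups compared called 0 genes in that comparison, and 0 for R. flavefaciens against control. In none of the 5 comparisons were the groups of any of the 8 genes free of overlap, against shares over all genes of 0.334%, 1.62%, 2.04%, 0.254% and 1.44% in the same order. At an unadjusted p under 0.05, 2 of the 8 genes, Ntrk2 and Ntrk3, were lower with R. flavefaciens than in controls, and against R. flavefaciens alone the mice given both treatments had Ntrk2 higher and Vgf and Crtc1 lower. These counts stand beside 10.8% of all genes lower (8.86% higher) in the first comparison, and 9.76% higher and 9.9% lower in the second. In the comparisons of duloxetine with control (2.2% of all genes higher, 1.63% lower), of both treatments with control (8.08% and 8.73%) and of both with duloxetine (3.02% and 2.88%), none of the 8 reached it, nor did any in the interaction (7.53%). With 75th percentile scaling the shares of all genes higher and lower were 2.78% and 1.06% for duloxetine against control, 11.3% and 4.98% for both treatments against control, 3.58% and 2.19% for both against duloxetine, and 12.2% and 6.97% for both against R. flavefaciens.

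**Figure D1:**
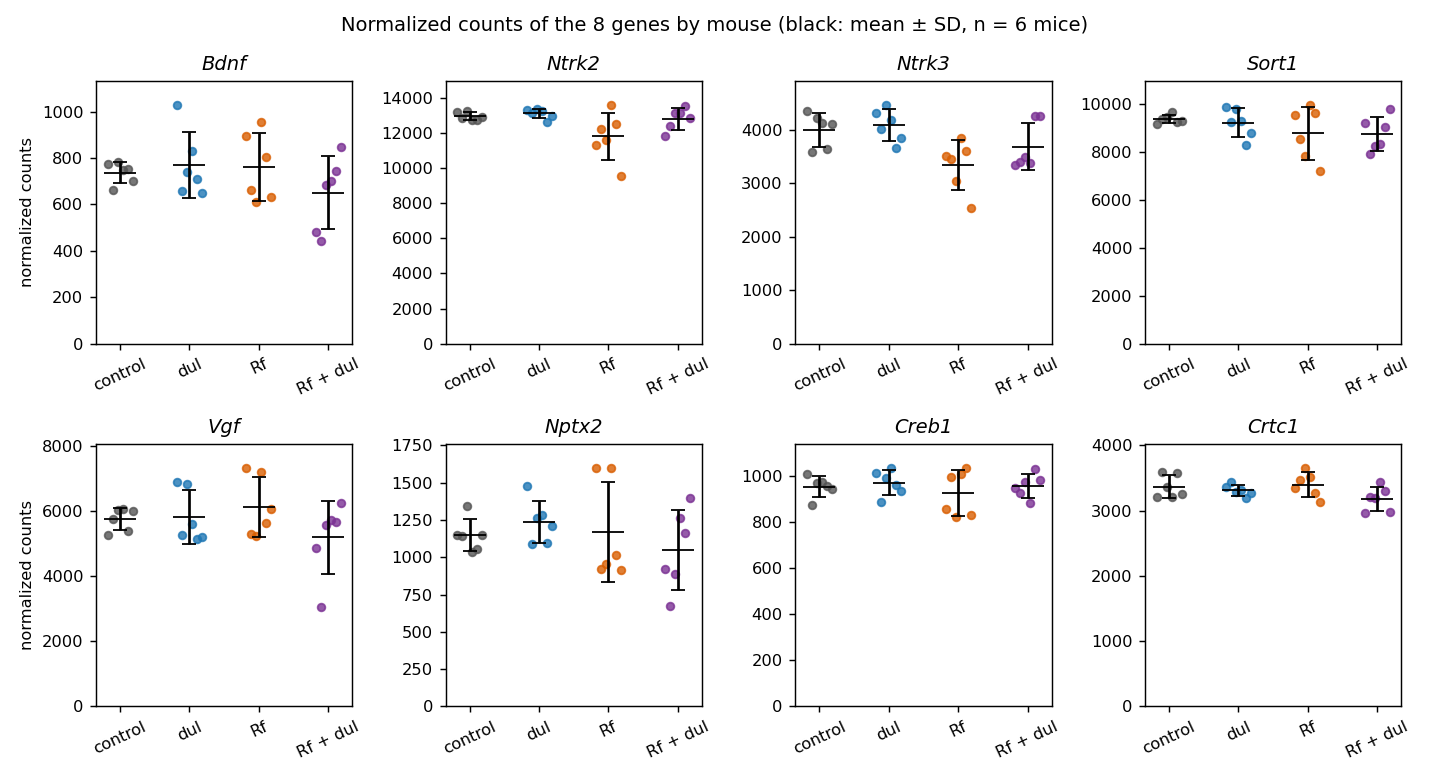
Normalized counts (y axis, from 0) of the 8 genes in the 6 mice of each group (points), with the mean and SD in black (dul, duloxetine; Rf, R. flavefaciens). The 6 control mice lie close together for Bdnf, at 664 to 784, while the mice given both treatments reach from 442 to 849, and the groups overlap in every panel.

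Bdnf, the ligand, had a mean of 737 ± 45.7 normalized counts in controls (SD, n = 6), with a lowest value of 664, a median of 749 and a highest of 784. In duloxetine mice it was 769 ± 143, with a lowest value of 650, a median of 724 and a highest of 1029. In R. flavefaciens mice it was 760 ± 146, from 610 over a median of 734 to 957. Mice given both treatments had the lowest mean, 650 ± 158, from 442 over a median of 692 to 849. The groups overlapped, and 2 of the 6 mice given both, 11_3 with 442 and 10_2 with 481, lay below every mouse of the other groups. Against control the log2 fold change with both treatments was -0.22 (SE 0.14, 95% confidence interval -0.50 to 0.06), with an adjusted p = 0.42. Against duloxetine alone it was -0.26 (SE 0.14, adjusted p = 0.82), and against R. flavefaciens alone -0.24 (SE 0.14, adjusted p = 0.33). Without mouse 11_3 these 3 values were -0.11, -0.16 and -0.14. The log2 fold changes of the single treatments against control were 0.04 (95% confidence interval -0.24 to 0.32) for duloxetine and 0.02 (-0.26 to 0.30) for R. flavefaciens. The coefficient of variation of Bdnf was 6.20% in controls, 18.6% with duloxetine, 19.3% with R. flavefaciens and 24.2% with both. The lowest number of Bdnf reads in any mouse, 449, has a counting error of 4.72%. In bulk tissue, fewer cells of a type and less RNA per cell cannot be told apart.

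Ntrk2 encodes TrkB, the receptor of BDNF in neurons and, largely as a form without kinase, in astrocytes. Its counts were the steadiest in controls, where they ran from 12730 over a median of 12890 to 13247. Duloxetine mice ran from 12640 over 13183 to 13373. R. flavefaciens mice ran from 9565 over 11895 to 13592, and mice given both from 11814 over 12973 to 13503. Of the 6 R. flavefaciens mice, 5 lay below all controls and 1, mouse 9_1, above all of them. The log2 fold change of R. flavefaciens against control was -0.14 (SE 0.06, 95% confidence interval -0.26 to -0.03, adjusted p = 0.16), and the exact permutation test over mice gave p = 0.0498, or 0.307 adjusted over all genes tested. Without mouse 9_3, which had the lowest count, the log2 fold change was -0.08 with an adjusted p = 0.47. Mice given both treatments had 0.12 more on the log2 scale than those given R. flavefaciens alone (SE 0.06, adjusted p = 0.22), or 0.07 without mouse 9_3.

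Ntrk3 encodes TrkC, the receptor of neurotrophin-3, and had the lowest adjusted p of the 8 genes. Control mice ran from 3583 over a median of 4108 to 4348, and duloxetine mice from 3665 over 4095 to 4462. R. flavefaciens mice ran from 2544 over 3484 to 3845, and mice given both from 3333 over 3440 to 4249. All 6 R. flavefaciens mice lay below the control mean and 4 of them below every control, yet the groups overlapped. The log2 fold change against control was -0.27 (SE 0.08, 95% confidence interval -0.44 to -0.10), with an adjusted p = 0.093. The exact permutation test gave p = 0.0152, or 0.212 adjusted over all genes tested. On the recovered reads DESeq2 gave -0.26 with an adjusted p = 0.045, edgeR gave -0.27 with an adjusted p = 0.10, and over all alternatives, single mice left out included, the adjusted p ran from 0.045 to 0.86. Without mouse 9_3 the log2 fold change was -0.20, and without mouse 8_4 it was -0.25. After the trend of fold change with transcript length was removed, the values were -0.04 for Ntrk3 and -0.01 for Ntrk2.

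Sort1 encodes sortilin, which binds proneurotrophins and sorts BDNF within the neuron. Its counts ran from 9158 over a median of 9341 to 9683 in controls, from 8308 over 9291 to 9875 with duloxetine, from 7196 over 9037 to 9967 with R. flavefaciens and from 7901 over 8694 to 9811 with both. The control range lay inside that of each treated group. Against control its log2 fold change was -0.10 both with R. flavefaciens (SE 0.07, adjusted p = 0.41) and with both treatments (SE 0.07, adjusted p = 0.45), and without mouse 9_3 the first of these was -0.05.

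**Figure D2:**
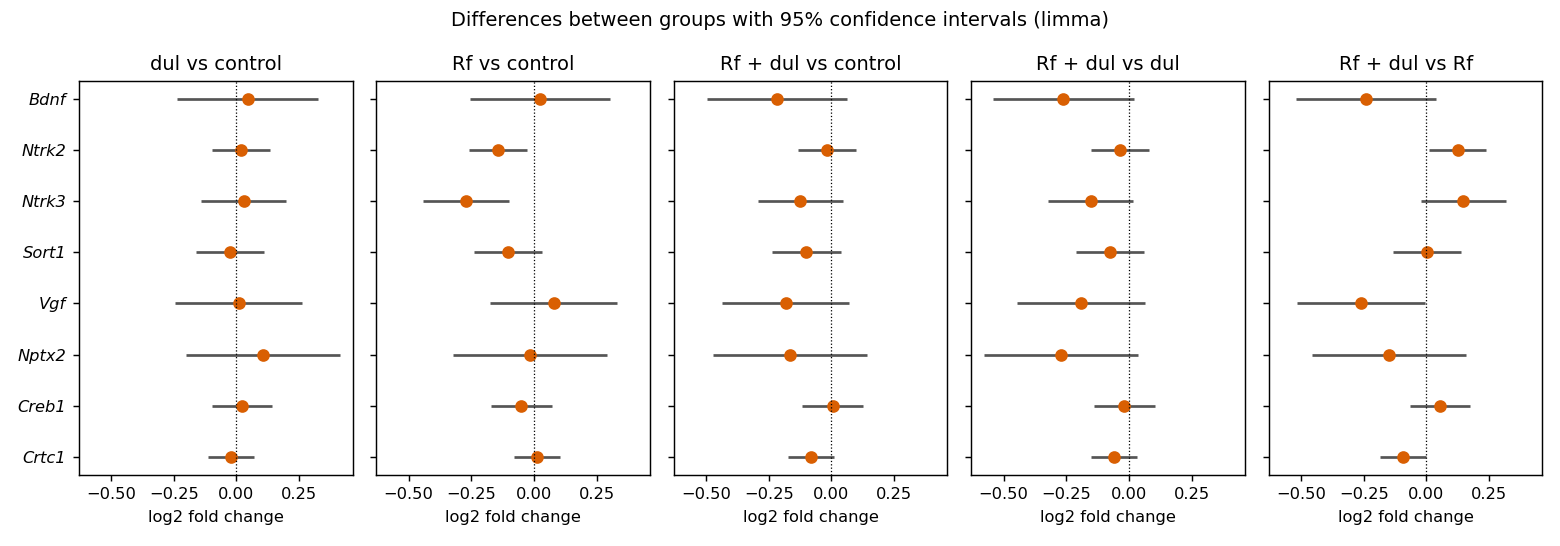
Log2 fold changes (x axis) of the 8 genes in the 5 comparisons of groups, as points with 95% confidence intervals from limma (dul, duloxetine; Rf, R. flavefaciens). Bdnf, Vgf and Nptx2 have the widest intervals, and in the comparison of Rf with control those of Ntrk2 and Ntrk3 lie below 0 before adjustment over all genes.

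Vgf encodes a secreted granin-like peptide precursor that BDNF induces. Control mice had from 5285 over a median of 5897 to 6068 normalized counts and duloxetine mice from 5159 over 5439 to 6920. R. flavefaciens mice had from 5235 over 5861 to 7348, and mice given both from 3061 over 5631 to 6244. Mouse 11_3, given both, had the 3061 and the next lowest mouse of its group 4873. The log2 fold change of both treatments against R. flavefaciens alone was -0.26 (SE 0.12, 95% confidence interval -0.52 to -0.01, adjusted p = 0.24), and the exact permutation test gave p = 0.169. Without mouse 11_3 it was -0.12. Against control it was 0.01 with duloxetine (SE 0.12), 0.08 with R. flavefaciens (SE 0.12) and -0.18 with both (SE 0.12, adjusted p = 0.46), the last being -0.04 without mouse 11_3.

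Nptx2 encodes neuronal pentraxin 2 (Narp), which is secreted at excitatory synapses and gathers AMPA receptors. It ran from 1038 over a median of 1147 to 1341 in controls and from 1091 over 1235 to 1478 with duloxetine. With R. flavefaciens it ran from 917 over 984 to 1601, with 4 mice below all controls and the remaining 2, 9_1 with 1595 and 7_2 with 1601, above them. With both treatments it ran from 670 over 1043 to 1394. Its coefficient of variation was 9.35% in controls, 11.6% with duloxetine, 28.7% with R. flavefaciens and 25.7% with both. The log2 fold changes against control were 0.11 (SE 0.15) for duloxetine, -0.02 (SE 0.15) for R. flavefaciens and -0.17 (SE 0.15) for both, and their 95% confidence intervals together spanned -0.47 to 0.41. Without mouse 11_3 the value for both was -0.04.

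Creb1 had the smallest group difference when each gene was taken at its largest, though other genes had smaller ones in single comparisons. Its counts ran from 874 over a median of 965 to 1013 in controls, from 889 over 977 to 1036 with duloxetine, from 825 over 929 to 1039 with R. flavefaciens and from 883 over 963 to 1033 with both. Its log2 fold changes between groups ran from -0.05 to 0.05, with SE of 0.06. A transcript level says nothing of the phosphorylation through which CREB is switched on. Crtc1, whose product binds CREB when calcineurin frees it in active neurons, ran from 3202 over 3305 to 3588 in controls, from 3195 over 3302 to 3436 with duloxetine, from 3132 over 3405 to 3659 with R. flavefaciens and from 2969 over 3203 to 3432 with both. Its log2 fold change with both treatments was -0.08 against control (SE 0.04, adjusted p = 0.35) and -0.09 against R. flavefaciens (SE 0.04, adjusted p = 0.24). The second was -0.21 with an adjusted p = 0.034 after the transcript length trend was removed, the 1 setting in which Crtc1 passed the threshold.

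The interaction of both treatments, that is, by how much the effect of R. flavefaciens differed with and without duloxetine, was on the log2 scale -0.29 for Bdnf (SE 0.19, adjusted p = 0.71), -0.27 for Vgf (SE 0.17) and -0.26 for Nptx2 (SE 0.21). The same quantity was 0.11 for Ntrk2 (SE 0.08) and 0.12 for Ntrk3 (SE 0.12). Without mouse 11_3 the first 3 were -0.18, -0.12 and -0.14, and without mouse 9_3 the values of Ntrk2 and Ntrk3 were 0.05 and 0.04. The adjusted p of the 8 genes ran from 0.69 to 0.96.

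The other genes of the pathway were listed by role. Of the neurotrophins, their Trk and p75 receptors and the sortilin family, 11 of 13 listed genes were in the table. With R. flavefaciens against control, 5 of the 11 were lower at an unadjusted p under 0.05, with a median log2 fold change of -0.10 against 0.00 over all genes tested, beside 10.8% of all genes lower, and none passed the adjusted threshold in the limma fit described above. DESeq2 called 2 of 11, Ntrk3 and Sorcs1, beside 3.32% of all genes, the fit with the block called Sorcs1, and that with the oligodendrocyte covariate Sorcs1 and Sorcs3. The 5 lower genes were Sorcs1, Ntrk3, Sorcs3 (-0.34, SE 0.11), Ntrk2 and Sorl1 (-0.26, SE 0.12). Sorcs3 and Sorl1 are named after their values were seen. Without mouse 9_3, 3 were lower, and after removal of the transcript length trend 2 were, beside 5.33% of all genes. Sorcs1, of the sortilin family, had the smallest p. It ran from 881 over 974 to 1062 normalized counts in controls and from 676 over 796 to 857 with R. flavefaciens, where all 6 mice lay below every control, and it was -0.34 on the log2 scale (SE 0.08, adjusted p = 0.073, or 0.047 with the block, 0.040 with the covariate and 0.015 in DESeq2). With duloxetine its log2 fold change was -0.10 (SE 0.08) and with both treatments -0.23 (SE 0.08, adjusted p = 0.18). Ngfr, which encodes the p75 receptor, was near the lowest counts tested, at 10.2 in controls and 13.5 with duloxetine.

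Of the genes that process proneurotrophins, 11 of 12 were in the table (Plg was not) and none passed the threshold. Pcsk5, a proprotein convertase, was -0.41 with R. flavefaciens (SE 0.13, adjusted p = 0.10), and Cpe, which encodes the carboxypeptidase E that sorts proBDNF, was 0.11 (SE 0.06). Mmp9, a protease that cleaves proBDNF, was -0.36 with duloxetine (SE 0.24). Pcsk1, the convertase with the full CREB site shown above, ran from 1180 over 1307 to 1350 in controls and from 769 over 974 to 1254 with both treatments (-0.39, SE 0.14, adjusted p = 0.17), with 4 of 6 mice below all controls.

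All 36 genes listed for Trk signalling were tested. With R. flavefaciens 12 of them (beside 10.8% of all genes) were lower and 3 (beside 8.86%) higher than in controls at an unadjusted p under 0.05, with a median log2 fold change of -0.05. Without mouse 8_4, 8 were lower, and after removal of the length trend 3 were lower and 4 higher, beside 5.33% and 5.7% of all genes. Kidins220, a scaffold that Trk receptors phosphorylate, had -0.23 (SE 0.06, adjusted p = 0.079), and Hras, the GTPase, 0.18 (SE 0.06, adjusted p = 0.10). The other higher genes were Akt1 and Sh2b2, both named after their values were seen. DESeq2 called Kidins220 (adjusted p = 0.028) and Hras (adjusted p = 0.045), 2 of 36 beside 3.32% of all genes. With both treatments against control 6 were lower, beside 8.73% of all genes, and none higher, and without mouse 12_2 there were 2 lower. Quantile normalization gave 2 lower and 2 higher in that comparison, and 75th percentile scaling 3 lower and 2 higher. Mtor, the kinase, ran from 2201 over 2243 to 2269 in controls and from 1773 over 1960 to 2128 with both treatments, without overlap (-0.20, SE 0.06, adjusted p = 0.11 in limma, 0.048 in DESeq2 and 0.043 in the fit to only these groups), and Sh2b1, an adaptor of Trk receptors, was -0.13 (SE 0.04). With duloxetine the smallest p-values were those of the adaptor gene Frs3 (-0.15, SE 0.08) and of Sos2 (-0.09, SE 0.06), which encodes a Ras exchange factor.

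One gene of the Trk list passed the threshold in the limma fit described above, Plcg1, 1 of 36 beside 2.23% of all genes, and it is named here after its values were seen. It encodes phospholipase C gamma 1, which TrkB recruits directly. Normalized counts ran from 971 over 1035 to 1126 with R. flavefaciens and from 1174 over 1205 to 1290 with both treatments, and these groups did not overlap. The log2 fold change of both against R. flavefaciens alone was 0.23 (SE 0.05, adjusted p = 0.017), and the exact permutation test over mice gave p = 0.00216, the smallest it can give. The call held in each of the 24 fits that left out 1 mouse, with values from 0.21 to 0.26. The largest adjusted p of these limma fits was 0.046, and leaving out a control or duloxetine mouse cannot move the fold change. The call was lost in 1 of 11 other alternatives, the fit to only the groups compared (adjusted p = 0.097). Controls, with a median of 1176, lay between 998 and 1213. In the same comparison Pik3r1 passed with quantile normalization (0.18, adjusted p = 0.050) and Akt1 without the length trend (-0.15, adjusted p = 0.042).

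Of the 8 genes of the CREB family and its coactivators none passed the threshold in limma. Ep300, the coactivator p300, ran from 1512 over 1583 to 1656 in controls. With R. flavefaciens it ran from 916 over 1475 to 1568, the lowest mouse lying far below the median. Its log2 fold changes were -0.07 with duloxetine (SE 0.09), -0.23 with R. flavefaciens (SE 0.09, adjusted p = 0.14) and -0.19 with both (SE 0.09, adjusted p = 0.27, or 0.049 in the fit to only these groups). Crebbp, which encodes CBP, was -0.16 with R. flavefaciens (SE 0.07). It ran from 1591 over 1637 to 1755 in controls and from 1184 over 1557 to 1677 with R. flavefaciens. Crem, a CREB relative that is itself a CREB target, was -0.09 with duloxetine (SE 0.09) and -0.24 with both treatments (SE 0.09, adjusted p = 0.20). Of 21 CREB kinases and CRTC regulators none passed in limma either, while DESeq2 called Camk1, named after its values were seen, for both treatments against R. flavefaciens (-0.17, adjusted p = 0.042, 1 of 21 beside 4.07% of all genes). With the oligodendrocyte covariate Camk1 (adjusted p = 0.039) and Camk1g (-0.34, adjusted p = 0.031) passed there, beside 4.92% of all genes. Camk4, a nuclear kinase of CREB, was -0.30 with R. flavefaciens (SE 0.11, adjusted p = 0.13) and Camk1d -0.21 (SE 0.08). Camk4 ran from 4399 over 4619 to 4829 in controls and from 2563 over 4004 to 4561 with R. flavefaciens. Camk1d ran from 2756 over 2872 to 3015 and from 1830 over 2650 to 2851. In both genes the lowest R. flavefaciens mouse lay far below the median of its group. The salt-inducible kinases hold CRTC proteins in the cytoplasm. Their gene Sik3 was -0.16 with both treatments (SE 0.05, adjusted p = 0.16), where all 6 mice lay below every control, and Sik1 was -0.25 with duloxetine (SE 0.16). Rps6ka2, a ribosomal S6 kinase gene, was -0.09 with duloxetine (SE 0.07) and -0.20 with both (SE 0.07, adjusted p = 0.18).

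**Figure D3:**
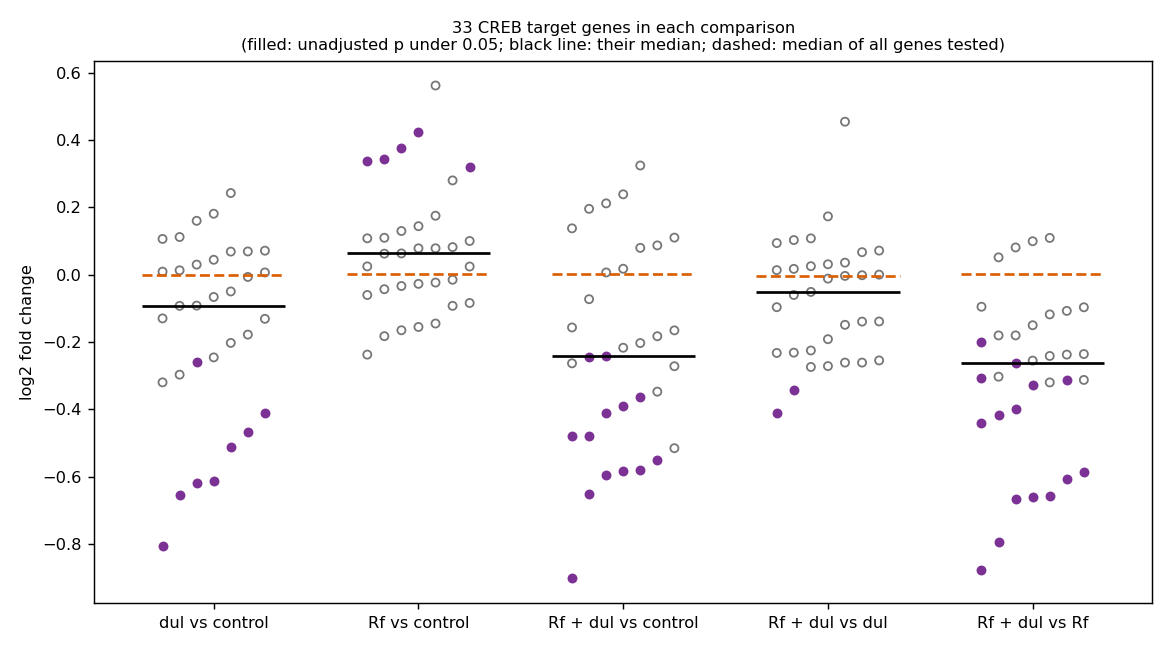
Log2 fold changes (y axis) of the 33 listed CREB target genes (points) in the 5 comparisons (x axis; dul, duloxetine; Rf, R. flavefaciens), filled where the unadjusted p was under 0.05, with their median (black line) and the median of all genes tested (dashed). The median of the 33 genes is -0.26 for Rf + dul against Rf and -0.05 for Rf + dul against dul.

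All 33 listed CREB target genes, Bdnf, Vgf and Nptx2 among them, were tested. With duloxetine against control 8 of them (24.2%) were lower at an unadjusted p under 0.05 and none higher, beside 1.63% lower over all genes, and the median log2 fold change was -0.09. The 8 were Nr4a1, Junb, Egr1, Fos, Egr2, Egr4, Per1 and Arc, of which the last 5 are named after their values were seen. None of the 33 passed the adjusted threshold in this comparison (smallest adjusted p = 0.9996, limma). The list was chosen with earlier results of these data known, so the excess over the share of all genes is a description. By sign alone, 20 of the 33 were lower and 13 higher, with Bdnf, Vgf and Nptx2 among the higher. With both treatments against control 13 (39.4%) were lower and none higher, beside 8.73%, with a median of -0.24. With both treatments against R. flavefaciens alone 15 (45.5%) were lower and none higher, beside 9.9%, with a median of -0.26. With R. flavefaciens against control 5 were higher, beside 8.86% of all genes, and none lower, with a median of 0.06. These were Sst, Tac1, Gadd45g, Cartpt and Gadd45b, of which the last 3 are named after their values were seen, and 3 were higher without mouse 8_4, without control mouse 1_1 or without control mouse 3_3. After removal of the length trend 2 were higher, Sst and Tac1, beside 5.7% of all genes. With both treatments against duloxetine 2 were lower, Pcsk1 and Homer1, beside 2.88% of all genes, with a median of -0.05, and this number was 0 without mouse 6_1 and 7 without mouse 12_4. These comparisons share groups, so their counts are not separate evidence. Over the fits that left out 1 mouse, the number lower ran from 6 to 10 for duloxetine against control, from 9 to 17 for both treatments against control and from 11 to 19 for both against R. flavefaciens. After removal of the length trend the 3 numbers were 9, 14 and 18, beside 2.51%, 12.5% and 13.4% of all genes. None was higher in these, beside 1.63%, 6.12% and 6.79%.

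In the comparison of both treatments with R. flavefaciens alone, 3 of the 33 CREB target genes fell past the adjusted threshold, beside 2.23% of all genes called, and all encode transcription factors of the immediate early response. Egr4, named after its values were seen, ran from 808 over 894 to 1120 with R. flavefaciens and from 331 over 625 to 952 with both (-0.66, SE 0.16, adjusted p = 0.033). Junb ran from 1028 over 1353 to 1438 and from 656 over 815 to 1205 (-0.59, SE 0.15, adjusted p = 0.036), and Nr4a1 from 1257 over 1690 to 2332 and from 781 over 1047 to 1704 (-0.66, SE 0.18, adjusted p = 0.049). In each case 5 of the 6 mice given both lay below every mouse given R. flavefaciens alone. Of the 24 fits that left out 1 mouse, the call held in 19 for Egr4, in 16 for Junb and in 6 for Nr4a1, and without mouse 11_3 the adjusted p were 0.10, 0.10 and 0.12. Leaving out a control or duloxetine mouse cannot move these fold changes, so such fits are a weak check. Every loss for Egr4 and Junb came from leaving out a mouse of the groups compared. In the fit to only the groups compared none of the 3 passed, and Nr4a1 was also lost with 75th percentile scaling, in DESeq2 and in edgeR. With duloxetine alone against control, Nr4a1 was -0.61 (SE 0.18) and Junb -0.47 (SE 0.15), both with an adjusted p = 1.00.

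For both treatments against R. flavefaciens, Egr1 and Ptgs2 passed in some alternatives, Egr1 with the block, the covariate and the length trend removed (adjusted p from 0.039 to 0.050), Ptgs2 with the covariate, the length trend removed and in DESeq2 (adjusted p from 0.047 to 0.050). Other target genes named by the rule did not pass the threshold in the limma fit described above. Egr1, the zinc finger factor, ran from 5176 over 5778 to 8060 in controls and from 2117 over 4016 to 6743 with both treatments (-0.65, SE 0.18, adjusted p = 0.11), and Nr4a3 was -0.58 (SE 0.17, adjusted p = 0.12). Sst, the gene of the neuropeptide somatostatin and a classical CREB target, ran from 1666 over 2022 to 2130 in controls and from 2224 over 2356 to 3181 with R. flavefaciens. These groups did not overlap, and the log2 fold change was 0.34 (SE 0.09, adjusted p = 0.073). Tac1, the gene of substance P, was 0.42 (SE 0.13, adjusted p = 0.096) in the same comparison. Without mouse 8_4, which had the highest level of striatal markers, the values were 0.32 for Sst and 0.37 for Tac1. After removal of the length trend they were 0.18 (adjusted p = 0.27) and 0.36 (adjusted p = 0.26), while DESeq2 called both (adjusted p = 0.020 and 0.046, beside 3.32% of all genes). Sst also passed with the block (adjusted p = 0.047) and with the oligodendrocyte covariate (adjusted p = 0.044). Both genes are expressed in inhibitory neurons, Tac1 also in those of the striatum. The summed level of 6 inhibitory neuron markers (Gad1 the most abundant, Sst 1 of them) was 10051 ± 464 normalized counts in controls and 10927 ± 388 with R. flavefaciens (exact permutation p = 0.00866). Without Sst the sum of the other 5 was 8076 ± 356 and 8420 ± 357 (exact permutation p = 0.128). Its part in the result was not tested.

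Of the 10 pentraxin and granin genes, none passed the threshold. Nptx1, the partner of Nptx2, ran from 7272 over 8329 to 8892 in controls and from 5779 over 6831 to 9191 with R. flavefaciens (-0.24, SE 0.08, adjusted p = 0.11), and was -0.13 with both treatments (SE 0.08). Scg5, the chaperone 7B2 of a proprotein convertase, was 0.15 with R. flavefaciens (SE 0.05, adjusted p = 0.14). Scg3 and Scg2 were 0.05 and 0.07 with duloxetine (SE 0.05 and 0.07), and Scg2, with its full CREB site, ran from 2605 over 2803 to 2974 in controls and from 2764 over 2897 to 3276 with duloxetine.

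Most of the 8 genes varied together from mouse to mouse. With each group centred on its own mean, Pearson's r over the 24 mice was 0.83 for Bdnf and Nptx2 (Spearman's rho 0.80), 0.82 for Vgf and Nptx2 (0.78) and 0.79 for Bdnf and Vgf (0.78). Without the pair of mice farthest from the median of the first gene these values of r were 0.80, 0.75 and 0.76. The ligand gene and the activity-regulated genes thus followed each other among mice that had the same treatment. Among the receptor genes r was 0.81 for Ntrk3 and Sort1, 0.77 for Ntrk2 and Ntrk3 and 0.61 for Ntrk2 and Sort1, and without the pair of farthest mice 0.75, 0.58 and 0.19. Bdnf had 0.67 with Ntrk3 and 0.64 with Sort1, and Sort1 had 0.67 with Nptx2. Creb1 went with Ntrk3 (0.72) and had 0.17 with Vgf and 0.20 with Nptx2, while it had 0.49 with Bdnf. Crtc1 had its highest r with Ntrk2, 0.44, and with the remaining 6 genes it lay between -0.21 and 0.07. Without mice 9_3 and 9_1, the farthest pair for Ntrk2 and for Sort1, Crtc1 had 0.23 with Ntrk2 and -0.41 with Sort1. The points share their libraries and sizing, and these values are descriptions.

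**Figure D4:**
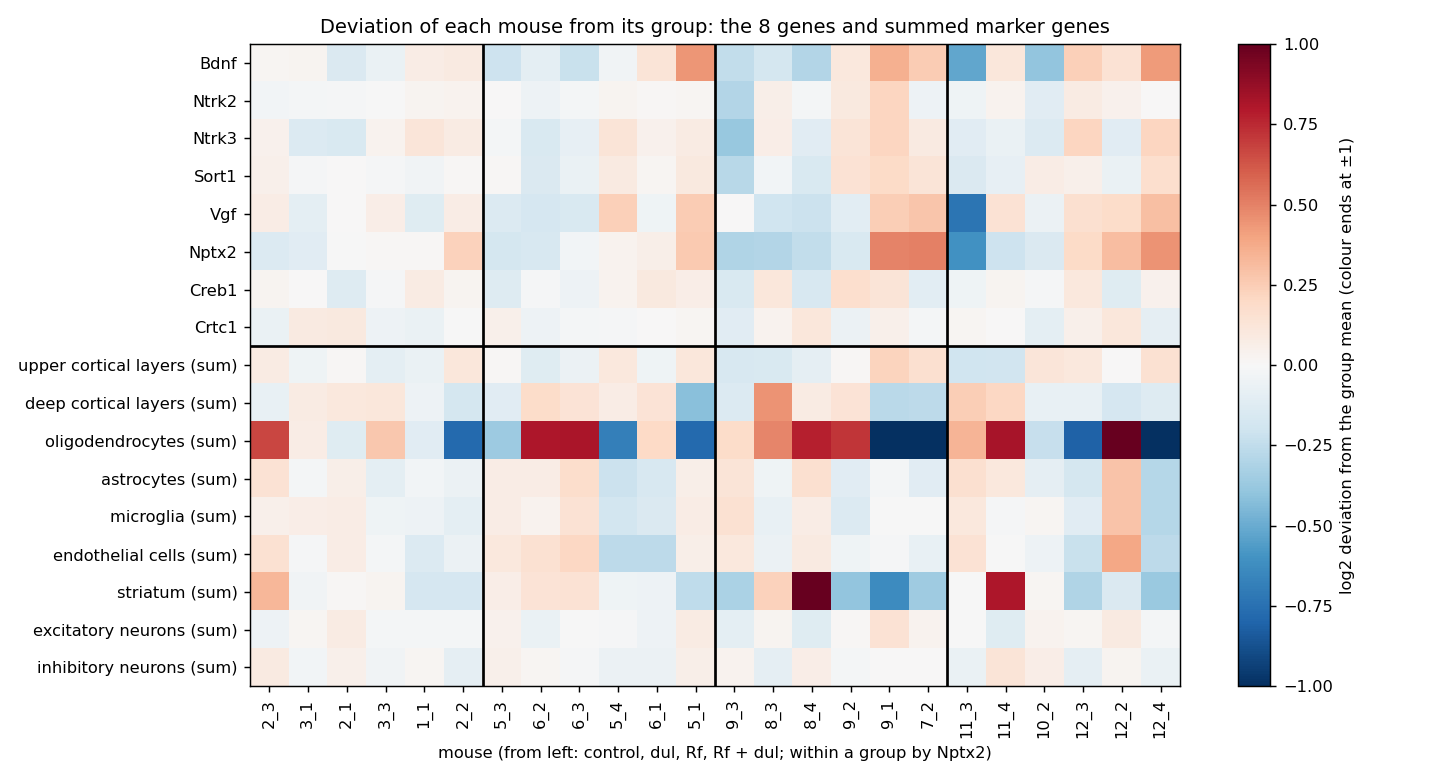
Deviation of each of the 24 mice (columns, by group and within a group by Nptx2) from its group mean on the log2 scale (colour) for the 8 genes and for the summed counts of 9 marker lists. Bdnf, Vgf and Nptx2 are low in mouse 11_3 and high in 12_4, 9_1, 7_2 and 5_1, and the oligodendrocyte row is low in these 4 mice. Other mice differ: in 12_2 that row is high and Bdnf, Vgf and Nptx2 lie above the group mean. In 5_3 the row and the same genes lie below it.

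Among all genes tested, those most like each of the 8 by Pearson's r over the 24 mice, group means removed, were for Bdnf Camk1g (0.92), Egr3 (0.91) and Sgsm1 (0.90). For Vgf they were Fscn1 (0.88), Cx3cl1 (0.87) and Chpf (0.87), and for Nptx2 Fscn1 (0.93), Tcof1 (0.90) and Cx3cl1 (0.90). For Ntrk3 they were Grin2b (0.95), Aff3 (0.93) and Ranbp2 (0.93), and for Sort1 Lmtk2, Slc2a13 and Gpr26 (each 0.97). For Ntrk2 they were Sipa1l1 (0.93), Prrc2c (0.93) and Cdc42bpa (0.92), which without the 2 farthest mice, 9_3 and 9_1, had 0.76, 0.80 and 0.77. For Creb1 they were Kif21a (0.88), Atp2c1 (0.85) and Shoc2 (0.84), and for Crtc1 Zc3h7b (0.76), Jph4 (0.75) and Adcyap1r1 (0.75).

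The markers of the cortex were present in every mouse, among them Camk2a of excitatory neurons with a mean of 52794 normalized counts. The lists of other cells and regions were not constant, however. The summed level of 6 oligodendrocyte markers, of which Mbp was the most abundant, ran from 11506 in mouse 12_4 to 51301 in mouse 12_2, both given both treatments. That of 6 striatal markers (Ppp1r1b the most abundant) ran from 1113 in mouse 9_1 to 4720 in mouse 8_4, over a median of 1445. That of the choroid plexus markers Kl and Ttr was 731 in mouse 8_4 over a median of 49.7, and of that list Ttr was 0 in 3 of the 24 mice and Folr1 was not in the table. Mouse 8_4 thus stood apart from the other R. flavefaciens mice. Without it the log2 fold change of R. flavefaciens against control was -0.14 for Ntrk2 and -0.25 for Ntrk3, as against -0.14 and -0.27 with it.

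A slope of each gene on the summed log2 level of each marker list, with group in the model, was fitted across all genes in limma after the values had been seen. Higher levels of 4 upper cortical layer markers (Cux2 the most abundant) went with higher Nptx2 (1.79 on the log2 scale per doubling of the markers, SE 0.28, adjusted p = 0.00017), Vgf (1.25, SE 0.28), Bdnf (1.22, SE 0.33, adjusted p = 0.016), Sort1 (0.78, SE 0.13) and Ntrk3 (0.74, SE 0.20). Thus 5 of the 8 genes passed an adjusted p of 0.05, all with a positive slope, beside 12.7% of all genes. The upper layer sum itself only ran from 5576 to 7293. With deep layer markers (Bcl11b the most abundant) the slopes were negative for Nptx2 (-0.97, SE 0.21) and Vgf (-0.72, SE 0.18), 2 of 8 genes beside 3.28%. Both layers belong to the cortex itself.

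**Figure D5:**
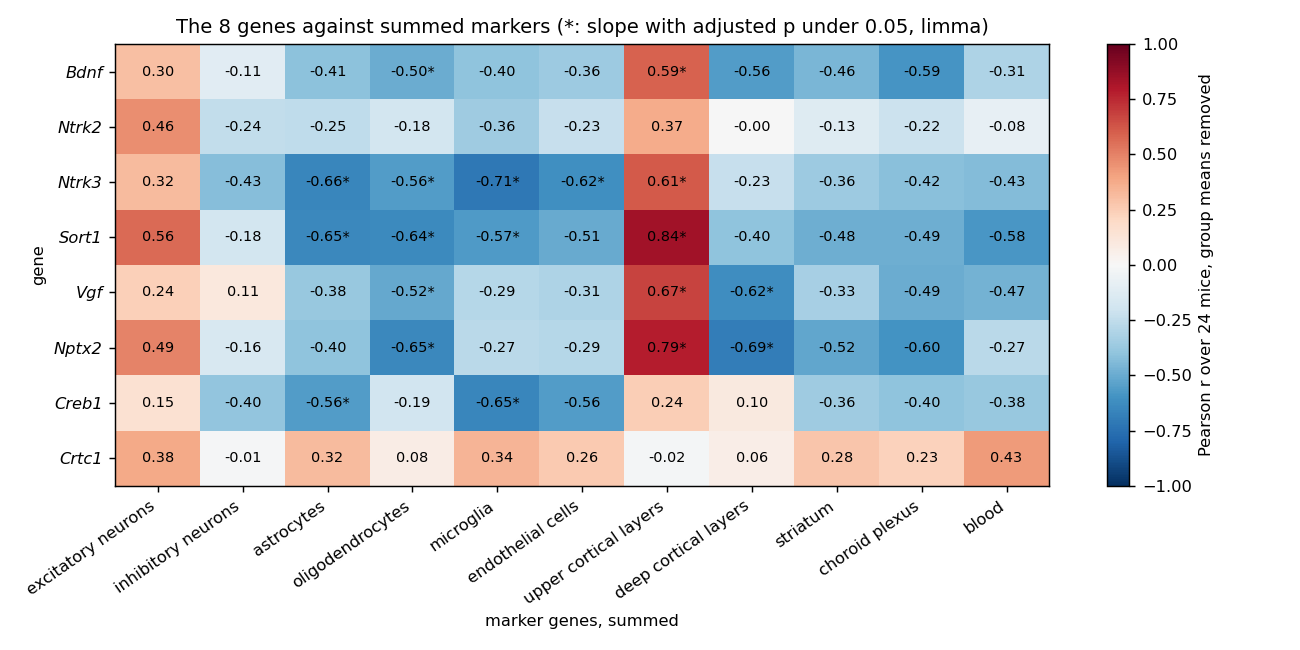
Pearson's r over 24 mice, group means removed, between each of the 8 genes (rows) and the summed level of 11 marker lists (columns), with an asterisk where the limma slope had an adjusted p under 0.05. The upper cortical layer column is positive with asterisks for Bdnf, Ntrk3, Sort1, Vgf and Nptx2, and the oligodendrocyte column is negative for the same 5 genes.

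With oligodendrocyte markers the same 5 genes passed, all with a negative slope, beside 14.6% of all genes. The slopes were -0.25 for Nptx2 (SE 0.06), -0.18 for Bdnf (SE 0.06, adjusted p = 0.049), -0.17 for Vgf (SE 0.05), -0.12 for Ntrk3 (SE 0.04) and -0.10 for Sort1 (SE 0.03). With astrocyte markers (Aldoc the most abundant) 3 passed, Ntrk3 (-0.68, SE 0.16), Sort1 (-0.52, SE 0.13) and Creb1 (-0.37, SE 0.13), beside 20.5%, and the same 3 passed with microglia markers (Csf1r the most abundant), beside 16.4%, with -0.84 for Ntrk3. With endothelial markers (Flt1 the most abundant) Ntrk3 passed (-0.56, SE 0.15), beside 14.5%. None of the 8 passed with markers of excitatory neurons (0.0601% of all genes), inhibitory neurons (0%), striatum (3.41%), choroid plexus (0.0134%) or blood (5.06%, Hbb-bs the most abundant). Ntrk2 and Crtc1 passed with none of the 11 lists.

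The groups differed little in the upper layer sum, 6217 ± 370 in controls and 6449 ± 689 with both treatments. The microglia sum was 3300 ± 166 in controls and 3673 ± 263 with R. flavefaciens (exact permutation p = 0.0152). It was also higher than in controls with duloxetine (0.14 on the log2 scale, exact permutation p = 0.0498), where Ntrk2 and Ntrk3 were 0.02 and 0.03, and with both treatments (0.20, exact permutation p = 0.0433). With R. flavefaciens against control the astrocyte sum was 20728 ± 1748 and 18803 ± 1158 (exact permutation p = 0.0476) and the blood sum 545 ± 179 and 322 ± 63.6 (exact permutation p = 0.00433). The endothelial sum was higher by 0.12 on the log2 scale (exact permutation p = 0.0476) and the deep layer sum had -0.28 (exact permutation p = 0.0563) there. Their part in the result was not tested. With the oligodendrocyte sum as a covariate, an alternative added after the data had been seen, Ntrk3 had -0.25 with R. flavefaciens against control (adjusted p = 0.058), and none of the 8 genes passed the threshold in any comparison.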

How the data were processed

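The deposited signal values are DESeq2-normalized counts per gene, made by the authors from poly(A) reads. The submitters' processing notes name TopHat2 2.1.0, Bowtie2 2.2.6 and DESeq2 1.18.1. They name build mm9 and the methods GRCm38. GENCODE vM21, built on GRCm38, gives 14253 genes the same position as the table. The counting program and its use of strand are not given in the sources used here. In every column at least 99.97% of values were whole multiples of 1 step (tolerance 0.0051), which gave read counts for 14455107 reads per mouse in the median. No column was left out.

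Values were tested as log2(value + 1) with limma 3.58.1 (R 4.3.3) over all 4 groups. The 14974 genes whose mean reached 10 entered, and p-values were adjusted over all of them (Benjamini-Hochberg). Fold changes are on that scale. Intervals are 95% from the moderated fit. Exact two-sided permutation tests used all 924 groupings. The fits were tested on simulated data. The 8 genes and all lists were chosen with earlier results of these data known. Named were the 8 genes, for each list and comparison with control the genes past the threshold and the 2 with the smallest p, and the 3 genes most like each of the 8. Some listed genes that this rule or a count covers are not reported here by name or value. Alternatives were a pseudocount of 0.1, no filter or a minimum mean of 50, only the groups compared, quantile and 75th percentile scaling, a random block, removal of the transcript length trend (loess, span 0.3), DESeq2 1.42.0, edgeR 4.0.16 and leaving out each mouse.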

Additional observations from a re-analysis of the deposited data

How the results depend on the processing

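Of the 520 log2 fold changes of the 8 genes recomputed under the alternatives that keep all mice, 498 kept their direction and side of the threshold, 2 passed it and 20 changed sign, none of the last past the threshold on either side. The 2 were Ntrk3 with R. flavefaciens against control in DESeq2 (1 of the 8 genes called there) and Crtc1 with both treatments against R. flavefaciens with the length trend removed (1 of 8). Of 1152 values with 1 mouse left out, 1116 kept both and 36 changed sign. In a comparison of groups, leaving out a mouse of another group cannot change the log2 fold change. The filter settings and the fit to only the groups compared cannot change it either. Such values kept their direction by design, so these totals overstate how steady the directions were. The cause of a change was not tested.

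Quantile normalization gave Ntrk2 -0.0043 for duloxetine against control, 0.0084 for both treatments against control and 0.013 for both against duloxetine, and 75th percentile scaling 0.013 for both against control. With the length trend removed, Vgf had -0.0095 for duloxetine against control, Creb1 0.078 for R. flavefaciens against control, 0.00032 for both against duloxetine and -0.041 for both against R. flavefaciens, and Ntrk2 0.015 for both against control. Ntrk3 then had -0.027 and Sort1 -0.071 for both against R. flavefaciens, and the interactions were -0.0083 for Ntrk2, -0.069 for Ntrk3, -0.053 for Sort1 and -0.077 for Creb1. Nptx2 with R. flavefaciens against control had 0.025 in DESeq2, 0.021 in edgeR and 0.024 with the oligodendrocyte covariate. Sort1 for both against R. flavefaciens had -0.0010 in DESeq2 and -0.0037 with that covariate.

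With 1 mouse left out, duloxetine against control ran from -0.044 to 0.089 for Bdnf, from -0.0024 to 0.059 for Ntrk3, from -0.046 to 0.0036 for Sort1, from -0.043 to 0.042 for Vgf and from -0.0025 to 0.049 for Creb1. R. flavefaciens against control ran from -0.047 to 0.084 for Bdnf, from -0.12 to 0.045 for Nptx2 and from -0.0090 to 0.036 for Crtc1. Both treatments against control ran from -0.034 to 0.0041 for Ntrk2 and from -0.021 to 0.028 for Creb1, and against duloxetine from -0.044 to 0.0053 for Creb1. Sort1 ran from -0.053 to 0.041 for both against R. flavefaciens and from -0.027 to 0.067 for the interaction, and the interaction of Creb1 from -0.00046 to 0.066.

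The number of all genes called moved more. For R. flavefaciens against control (4 in the fit described above) it was 0 with only the groups compared, 221 with a random block for the first label number, 1 with the length trend removed, 497 in DESeq2, 223 with the covariate, and from 0 to 616 with 1 mouse left out. For both treatments against control (15) it was 30 with a minimum mean of 50, 196 with only the groups compared, 23 with 75th percentile scaling, 59 with the block, 71 without the length trend, 217 in DESeq2, 114 with the covariate and from 5 to 154 with 1 mouse left out. For both against R. flavefaciens (334) it was 0 with only the groups compared, 533 with the block, 610 in DESeq2, 736 with the covariate and from 47 to 577 with 1 mouse left out. DESeq2 called 1 gene for duloxetine against control and 1 for both against duloxetine, where leaving out 1 mouse gave from 0 to 2. The covariate, the counts of list genes with 1 mouse left out and the inhibitory neuron sum without Sst were chosen after seeing the data.

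No paired analysis was possible because the mouse labels do not repeat across groups. Standard errors of 0.04 to 0.15 on the log2 scale in the comparisons of groups, and of 0.06 to 0.21 in the interaction, limit what could be seen for the 8 genes.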
